A study of Homo sapiens with 21 samples.

Results

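SH-SY5Y cells labelled with the amyloid precursor protein (APP) V717F mutation were compared with wild-type SH-SY5Y cells. Both had received the compound that the labels call NOSCA. APP_NOSCA stands for APP-V717F cells with NOSCA (3 arrays) and WT_NOSCA for wild-type cells with NOSCA (3 arrays). These 6 of the 21 arrays of the study were picked by their labels, and no vehicle array is on either side of the comparison. All 21 arrays, vehicle included, entered the fit that gave its estimate of the spread. Within the compound-treated cultures the genotype is therefore the labelled difference. The other arrays had vehicle (DMSO), AG494 or, in wild-type cells only, the treatment labelled PALBO.

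SH-SY5Y is a human neuroblastoma line of sympathetic origin. Cultures of both genotypes alike had spent 3 to 4 days in a neuronal medium with retinoic acid (10 µM) and BDNF, the brain-derived neurotrophic factor (50 ng/mL), which drive their differentiation. Treatment then lasted 72 h, at 0.1% DMSO in every culture. From each, 25 ng of total RNA was amplified and hybridised to an Affymetrix PrimeView array. The labels give no dose of NOSCA, do not expand its name, and do not say how the mutated line was made or whether it is 1 clone, so that a difference between the genotypes cannot be told apart from a difference between lines. The series reports 3 independent experiments, and the arrays fall into 3 runs by the sample numbers of their labels, each with 1 array of every group. P-values therefore measure the spread between repeats of the same lines.

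APP is a membrane protein that is cut by secretases, and cleavage by beta- and gamma-secretase releases amyloid-beta peptides. V717F lies in the stretch of the protein next to the gamma-secretase cut and is a mutation of familial Alzheimer's disease. Interferons act through receptors, Janus kinases and STAT and IRF factors on a large set of antiviral genes. Bone morphogenetic proteins (BMPs) act through receptor kinases and SMAD proteins on targets such as the ID genes, and are known for a part in the formation of sympathetic neurons.

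The values are log2 intensities normalised with RMA, in which a step of 1 is a 2-fold change. A gene was called at an adjusted p under 0.05 (limma, all 21 arrays in 1 fit with the run as a block, Benjamini-Hochberg over 18132 genes). Between APP_NOSCA and WT_NOSCA, 2680 genes were called, or 14.8% of those tested. Of these, 1449 rose (7.99%) and 1231 fell (6.79%). Counts of list members given below are to be read against these shares. A change of at least 1.5-fold was found for 329 called genes upward (1.81%) and for 366 downward (2.02%). All 3 APP_NOSCA arrays lay above all 3 WT_NOSCA arrays for 2354 genes (13.0%) and below them for 1918 (10.6%), without regard to the test. The median difference over all genes was 0.02. The array medians of the 6 arrays lay between 7.90 and 7.99. In a principal component analysis of all 21 arrays, the 9 APP arrays (17.5 to 24.5) and the 12 WT arrays (-23.7 to -9.23) lay apart on component 1, with 41.8% of the variance. The WT arrays there include those of PALBO, which has no APP counterpart, and -9.23 is the PALBO array of run 3. Without the run as a block 1306 genes were called, all of them among the 2680. A fit of only the 6 arrays of the comparison called 1745 genes.

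Sympathetic neuroblast genes were bright in every array. The 11 measured markers of that cell type averaged 12.1, 12.0 and 12.0 in APP_NOSCA and 12.1, 12.1 and 11.9 in WT_NOSCA. HAND2, a transcription factor of sympathetic neurons, had 12.75, 12.73 and 12.68 in APP_NOSCA against 12.76, 12.72 and 12.73 in WT_NOSCA. Single members of the list moved nonetheless: 6 of 11 were called, or 54.5%, against 14.8% of all genes. The granins CHGA (0.60 ± 0.05) and CHGB (0.46 ± 0.09) rose. The RNA-binding protein ELAVL4 (-0.38 ± 0.06), the transcription factors GATA2 (-0.29 ± 0.06) and ISL1 (-0.20 ± 0.06) and the enzyme DBH (-0.22 ± 0.04) fell, and 2 of these 4 falls were called without the run as a block. The averages of the 16 immune cell markers lay at 6.13 to 6.24 in APP_NOSCA and at 6.09 to 6.10 in WT_NOSCA, with no member called. PTPRC, the common antigen of leukocytes, did not exceed 5.18 in APP_NOSCA or 5.04 in WT_NOSCA, near the lowest value of the data, 4.14. The 10 Schwann and glial markers averaged 6.07 to 6.19 in APP_NOSCA and 6.18 to 6.20 in WT_NOSCA, and the 14 fibroblast and endothelial markers 8.22 to 8.39 in APP_NOSCA and 8.33 to 8.48 in WT_NOSCA. Of the glial genes 1 fell, the calcium-binding protein S100B (-1.20 ± 0.13). Of the fibroblast and endothelial genes 3 fell: the collagen chain COL1A1 fell by 1.00, and the others were the surface protein THY1 (-0.92 ± 0.09) and the receptor PDGFRA (-0.61). The matrix proteoglycan DCN rose (1.28 ± 0.22).

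APP itself did not pass the test under NOSCA. Its brightest probe set read 12.36, 12.52 and 12.49 in APP_NOSCA against 12.48, 12.50 and 12.52 in WT_NOSCA, a log2 difference of -0.04 ± 0.07 (SE, adjusted p = 0.74 by limma), and the groups overlapped. Of the 13 probe sets of APP, 12 had a negative difference and 5 were called lower, with a range of -0.51 to 0.24. The array reads the amount of the transcript and not the mutation, so that this does not check the genotype labels. The homologues APLP1 (-0.09) and APLP2 (-0.05) were not called on their brightest probe sets either. All 3 probe sets of APLP1 and all 4 of APLP2 had a negative difference, and 1 of each gene was called lower.

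Interferon-response genes were prominent among the rises. Of 64 measured genes, 34 rose and 2 fell, with a median of 0.44, against 0.02 over all genes. The mean level of the list was 8.24, 8.45 and 8.41 in APP_NOSCA and 7.52, 7.47 and 7.53 in WT_NOSCA. Markers of immune cells, a cell type rich in such genes, had no called member among 16 and a median difference of 0.10, and their part in the result was not tested. In bulk RNA, a larger share of responding cells and more RNA per cell cannot be told apart.

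Among the effectors, which block viral entry, replication or release, 17 of 20 rose and none fell (median 1.28). IFITM1, a membrane protein that hinders viral fusion, had 8.87, 10.29 and 10.31 in APP_NOSCA against 5.80, 5.70 and 6.26 in WT_NOSCA, a difference of 3.91 ± 0.24 (SE, adjusted p = 5.6e-09). IFI44L read 9.53, 10.54 and 10.44 in APP_NOSCA and 6.16, 6.00 and 6.83 in WT_NOSCA (3.84 ± 0.18, adjusted p = 2.17e-10). IFIT1, which binds foreign RNA caps, read 9.21, 9.99 and 10.27 in APP_NOSCA and 6.46, 6.11 and 6.56 in WT_NOSCA (3.45 ± 0.21, adjusted p = 5.51e-09). The groups were far apart for all 3 genes, and the array of run 1 was the lowest of the APP_NOSCA arrays each time. IFI44 (3.20), BST2, which tethers budding virions (2.81), IFI6 (2.08), RSAD2 (1.86), IFI27 (1.84) and IFITM3 (1.46) also rose. IFITM2 (0.01), TRIM22 (0.20) and MX1 (0.06) were not called, and MX1 was dim in all arrays at no more than 5.18 in APP_NOSCA and 5.17 in WT_NOSCA.

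The sensors of foreign nucleic acid gave 5 rises among 12 genes (median 0.40). OAS1, a synthetase of the 2-5A messenger, had 8.90, 9.54 and 9.28 in APP_NOSCA against 6.43, 6.14 and 6.00 in WT_NOSCA (3.05 ± 0.24). The RNA helicases IFIH1 (1.85 ± 0.18) and RIGI (1.74 ± 0.14), the synthetase-like OASL (1.33) and the kinase EIF2AK2 (0.88) also rose. OAS2 (0.30) and OAS3 (0.05), relatives of OAS1, did not pass the test.

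Signal components moved less. The receptor chains IFNAR1 (0.26 ± 0.06) and IL10RB (0.34 ± 0.07) rose, IFNGR2 fell by 0.35, and IFNAR2 and IFNGR1 each had a difference of 0.01. Of 9 relay genes, IRF9, the DNA-binding part of the type I interferon complex (1.31 ± 0.10), IRF7 (1.15 ± 0.09) and IRF1 (0.85 ± 0.09) rose, and the kinase TYK2 fell by 0.19. IRF9 read 11.28, 11.51 and 11.25 in APP_NOSCA and 9.88, 10.10 and 10.14 in WT_NOSCA, with no overlap. The transcript of interferon beta itself, IFNB1, looked up after the lists were made, was dim and not called (5.35, 5.61 and 5.29 in APP_NOSCA, 5.31, 5.24 and 5.44 in WT_NOSCA).

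Members of the same family did not all move. Of 8 ubiquitin-like and feedback genes, 4 rose: the ligases HERC6 (1.70 ± 0.08) and HERC5 (1.27), the cytokine-signal inhibitor SOCS3 (0.72) and LGALS3BP (0.38). ISG15, the ubiquitin-like modifier that HERC5 attaches, had 7.86, 7.87 and 8.10 in APP_NOSCA and 7.99, 8.34 and 8.56 in WT_NOSCA. Its groups overlapped, and the difference of -0.35 ± 0.13 was not called (adjusted p = 0.093), on the only probe set of that gene. Of 10 guanylate-binding proteins and PARPs, GBP4 (3.12 ± 0.17), PARP9 (1.88) and its partner DTX3L (1.47) rose, and GBP1, GBP2, GBP3 and GBP5 lay between -0.13 and 0.22 and were not called. Of the 5 probe sets of GBP4, 2 were called, with a range of 0.03 to 3.12.

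**Figure D1:**
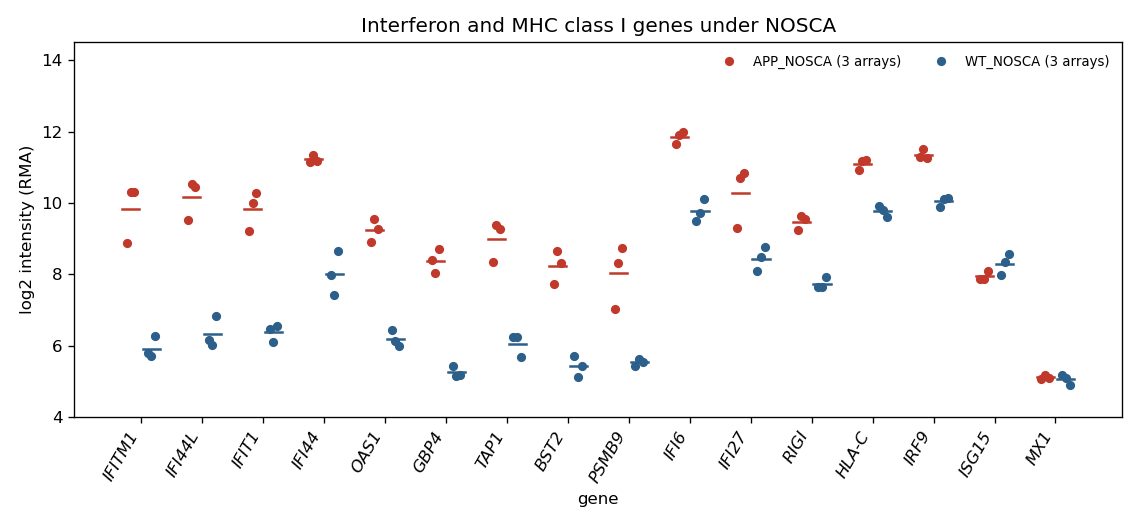
Log2 RMA intensity (y axis) of 16 interferon and MHC class I genes (x axis) in the 3 APP_NOSCA arrays (red, left of each gene) and the 3 WT_NOSCA arrays (blue, right of each gene). Points are arrays and bars are group means. The groups do not overlap for the first 14 genes, and they overlap for ISG15 and MX1.

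Antigen presentation on MHC class I shares its inducers with these genes. Of 20 measured genes of that pathway, 12 rose and none fell (median 0.34). TAP1, a subunit of the peptide transporter, had 8.36, 9.38 and 9.26 in APP_NOSCA against 6.23, 6.25 and 5.69 in WT_NOSCA (2.94 ± 0.23, adjusted p = 9.49e-08). The immunoproteasome subunits PSMB9 (2.50 ± 0.30) and PSMB8 (1.74 ± 0.25), the transactivator NLRC5 (1.68 ± 0.17), the heavy chains HLA-C (1.32 ± 0.16) and HLA-B (1.16 ± 0.17), TAP2 (1.12 ± 0.12) and the light chain B2M (0.32 ± 0.07) rose. Of the 3 probe sets of PSMB9, 2 were called, with a range of 0.001 to 2.50. The HLA genes are near-identical copies, and probe sets can read more than 1 of them. The general chaperones of this route, CALR (-0.14), CANX (-0.04) and PDIA3 (-0.05), were not called on their brightest probe sets. Over all probe sets, PDIA3 was called lower on 1 of 2 (lowest -0.51) and CANX on 1 of 9 (lowest -0.375). TAP2, PSMB8, TAP1 and PSMB9 lie side by side on chromosome 6, and all 4 rose.

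The interferon-stimulated response element is the DNA motif to which the IRF9 complex and related factors bind, and its core can be written GAAANNGAAA. It was searched on both strands, overlapping matches included, in the 250 bases before each gene's start in RefSeq (GRCh38.p14). Of the 46 interferon and MHC class I genes that rose, 41 had a promoter in the table and 18 of those held a match, or 43.9%. Over all 27305 promoters of that length the share was 3.07%. It was 2.61% over the 14425 tested genes with an entry, and 4.05% over the 1136 genes called higher with an entry. Of the 38 members that did not rise, 22 had an entry and 9 of those held a match, or 40.9%. Members without an entry could not be searched, and a part of the motif in the rises was not tested. A match is a run of letters and not a shown binding site. The promoters of 3 genes that rose and of ISG15, which did not, are printed in the direction of the gene, with the matches on either strand in capitals. They are IFIT1 (chr10:89392373-89392622, plus strand), IFITM1 (chr11:313790-314039, plus strand), TAP1 (chr6:32853705-32853954, minus strand) and ISG15 (chr1:1013247-1013496, plus strand).
IFIT1: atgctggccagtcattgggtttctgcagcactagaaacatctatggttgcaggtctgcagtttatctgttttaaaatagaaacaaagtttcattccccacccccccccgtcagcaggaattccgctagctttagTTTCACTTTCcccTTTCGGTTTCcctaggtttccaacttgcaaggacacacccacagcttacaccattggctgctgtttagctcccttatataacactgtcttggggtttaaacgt
IFITM1: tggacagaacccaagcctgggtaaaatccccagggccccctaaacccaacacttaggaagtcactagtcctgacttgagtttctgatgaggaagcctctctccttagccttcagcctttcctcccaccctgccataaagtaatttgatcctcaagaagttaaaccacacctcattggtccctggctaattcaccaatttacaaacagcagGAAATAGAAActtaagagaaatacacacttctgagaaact
TAP1: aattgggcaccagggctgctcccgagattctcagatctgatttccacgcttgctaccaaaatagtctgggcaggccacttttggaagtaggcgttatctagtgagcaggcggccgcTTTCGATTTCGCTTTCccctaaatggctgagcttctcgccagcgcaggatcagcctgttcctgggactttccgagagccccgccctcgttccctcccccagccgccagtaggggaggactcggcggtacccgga
ISG15: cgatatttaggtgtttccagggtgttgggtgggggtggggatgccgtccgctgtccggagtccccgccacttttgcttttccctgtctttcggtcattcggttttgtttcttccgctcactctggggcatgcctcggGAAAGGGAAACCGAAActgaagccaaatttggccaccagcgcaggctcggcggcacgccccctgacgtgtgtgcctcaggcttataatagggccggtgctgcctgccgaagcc
The promoters of IFIT1, TAP1 and ISG15 each held 2 matches, and that of IFITM1 held 1. ISG15 was not called, and a link between the number of matches and the rises was not tested.

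The inflammatory genes driven by NF-kappaB showed no common direction. Of 18 measured, 3 rose and 1 fell (median 0.05), or 22.2% called, against 14.8% of all genes. The monocyte attractant CCL2 had 11.29, 11.34 and 11.71 in APP_NOSCA against 9.09, 8.40 and 9.02 in WT_NOSCA (2.61 ± 0.26, adjusted p = 1.5e-06), with no overlap. ICAM1 (0.80 ± 0.15) and IL32 (0.65 ± 0.09) rose and TNFAIP2 fell by 0.68. The feedback inhibitors NFKBIA (0.13) and TNFAIP3 (-0.03) were not called.

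BMP and TGF-beta signalling moved the other way. Of 39 measured genes, 17 fell and 2 rose (median -0.09). The ligand BMP4 had 7.71, 7.90 and 7.58 in APP_NOSCA against 11.14, 10.41 and 10.35 in WT_NOSCA (-2.90 ± 0.25, adjusted p = 4.05e-07). The ligands GDF15 (-1.32 ± 0.30), INHBA (-0.96 ± 0.09) and BMP7 (-0.55 ± 0.12) also fell. The other 6 ligands of the list, BMP2 among them (0.16 ± 0.12), were not called. GDF10, a BMP family member that the list does not hold, rose (2.26 ± 0.17). Of 8 receptors, ENG (-0.66) and BMPR2 (-0.27) fell.

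Direct targets of SMAD proteins were lower as well. ID1, an inhibitor of neuronal basic helix-loop-helix factors, read 7.34, 7.16 and 6.92 in APP_NOSCA and 10.23, 9.75 and 9.64 in WT_NOSCA (-2.73 ± 0.14, adjusted p = 7.16e-10). ID3 (-1.09 ± 0.09), ID2 (-0.87 ± 0.11), HEY1 (-0.46 ± 0.08) and ATOH8 (-0.46) fell, so that 5 of 8 targets were called lower (median -0.46). The feedback inhibitors SMAD6 (-1.20 ± 0.09) and SMAD7 (-0.89 ± 0.11) and the decoy receptor BAMBI (-1.82 ± 0.10) fell. BAMBI read 8.26, 8.00 and 7.72 in APP_NOSCA and 10.13, 9.69 and 9.62 in WT_NOSCA. The 2 genes of the list that rose were SMAD1 (0.21) and SMOC1, a secreted BMP antagonist. SMOC1 had 11.24, 11.40 and 11.21 in APP_NOSCA and 7.63, 8.18 and 8.68 in WT_NOSCA (3.12 ± 0.24). Its relative SMOC2 fell by 1.75, and noggin (NOG, 0.05) and chordin (CHRD, -0.03) were not called. The groups of BMP4, ID1, BAMBI and SMOC1 did not overlap.

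**Figure D2:**
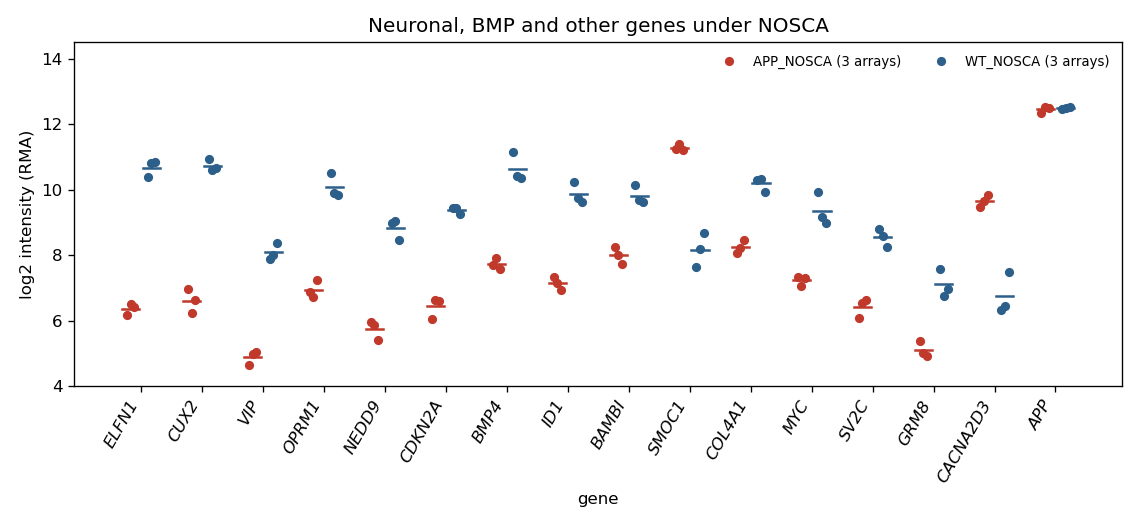
Log2 RMA intensity (y axis) of 16 genes (x axis) in the 3 APP_NOSCA arrays (red, left of each gene) and the 3 WT_NOSCA arrays (blue, right of each gene). Points are arrays and bars are group means. SMOC1 and CACNA2D3 are higher in APP_NOSCA, 13 genes are lower without overlap, and the points of APP overlap.

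The 3 largest falls were those of ELFN1, CUX2 and VIP. ELFN1, a postsynaptic adhesion protein that recruits presynaptic glutamate receptors, had 6.18, 6.50 and 6.42 in APP_NOSCA against 10.39, 10.80 and 10.83 in WT_NOSCA (-4.31 ± 0.16, adjusted p = 1.99e-11). CUX2, a transcription factor of upper-layer cortical neurons, read 6.96, 6.24 and 6.63 in APP_NOSCA and 10.94, 10.61 and 10.66 in WT_NOSCA (-4.13 ± 0.13, adjusted p = 1.76e-12). The neuropeptide VIP had 4.64, 4.98 and 5.03 in APP_NOSCA and 7.89, 7.99 and 8.38 in WT_NOSCA (-3.20 ± 0.18). The groups of all 3 genes were separated by over 2 log2 units. The other genes among the 15 largest falls were OPRM1, NEDD9, CDKN2A, BMP4, TVP23A (-2.78), ID1, CCDC3 (-2.61), the coagulation inhibitor TFPI (-2.58), TCEAL2 (-2.43), TNFAIP6 (-2.41), PCDHB3 (-2.37) and the calcium buffer CALB1 (-2.29). The 15 largest rises, mostly interferon and presentation genes, also included SMOC1, CCL2, CACNA2D3, a calcium channel subunit (2.90 ± 0.19), FSTL4 (2.69 ± 0.23), the fatty acid carrier FABP3 (2.68 ± 0.15) and the BMP family member GDF10 (2.26 ± 0.17).

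Genes of the noradrenergic identity mostly fell where they moved. Of 29 measured, 12 fell and 4 rose (median -0.14). Among transcription factors LMO1 (-1.09 ± 0.10) and HAND1 (-0.65 ± 0.09) fell, while INSM1 (0.96 ± 0.18) and MYCN (0.70 ± 0.11) rose. LMO1 had 7.39, 7.60 and 7.96 in APP_NOSCA and 8.68, 8.69 and 8.85 in WT_NOSCA, with no overlap. Among catecholamine genes the monoamine oxidases MAOB (-1.37 ± 0.14) and MAOA (-0.79 ± 0.10), the noradrenaline transporter SLC6A2 (-0.68 ± 0.10) and DBH, which makes noradrenaline (-0.22 ± 0.04), fell. The vesicular monoamine transporter SLC18A2 rose, with 10.70, 9.91 and 9.80 in APP_NOSCA and 9.61, 8.99 and 7.76 in WT_NOSCA (1.35 ± 0.20). TH, the first enzyme of the pathway, was not called (-0.26 ± 0.35). Its APP_NOSCA arrays lay at 7.98 to 8.15, inside the spread of its WT_NOSCA arrays from 7.43 to 9.28. Without the run as a block 8 of these 29 genes fell and 2 rose.

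Secretory peptides were divided. Of 17 neuropeptides and granins, 7 rose and 3 fell (median 0.18). The granin CHGA had 13.02, 12.96 and 12.88 in APP_NOSCA against 12.35, 12.34 and 12.38 in WT_NOSCA (0.60 ± 0.05), with no overlap. NPY (0.88 ± 0.12), CHGB (0.46 ± 0.09) and galanin (GAL, 0.25 ± 0.05) rose as well, and CARTPT fell by 1.45. Among opioid genes the mu receptor OPRM1 had 6.88, 6.73 and 7.24 in APP_NOSCA and 10.52, 9.89 and 9.84 in WT_NOSCA (-3.13 ± 0.17, adjusted p = 1.3e-09). All 5 probe sets of OPRM1 had a negative difference and 3 were called. The delta receptor OPRD1 (0.55 ± 0.16) and the nociceptin receptor OPRL1 (0.27 ± 0.07) rose, and neither was called without the run as a block. That setting left 4 rises among the 17 peptides.

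Synaptic genes gave more falls than rises. Of 27 presynaptic genes, 9 fell and 2 rose (median -0.12). The vesicle protein SV2C had 6.07, 6.54 and 6.62 in APP_NOSCA and 8.80, 8.59 and 8.26 in WT_NOSCA (-2.14 ± 0.21). The complexins CPLX2 (-1.50 ± 0.12) and CPLX1 (-0.94 ± 0.10), which clamp the fusion machinery, the adhesion receptor NRXN2 (-0.95 ± 0.07) and the endocytic adaptor SNAP91 (-0.43 ± 0.07) fell. Core parts such as SNAP25 (0.08), VAMP2 (0.06) and SYP (0.19) were not called, and the 2 rises, SYT5 (0.38) and BSN (0.29), were lost without the run as a block. Of 23 postsynaptic and adhesion genes, 7 fell and 5 rose, and 2 rose without the run as a block or without the WT_NOSCA array of run 2. The scaffolds SHANK2 (-0.84 ± 0.08) and SHANK1 (-0.81 ± 0.15) and the adhesion protein LRRTM2 (-1.02 ± 0.17) fell, while CNTNAP2, which clusters potassium channels, rose (1.19 ± 0.14). LRRTM2 was called on 1 of its 5 probe sets, with a range of -1.02 to 0.08.

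Among 25 neurotransmitter receptors, 6 fell and 1 rose. GRM8, a metabotropic glutamate receptor that acts on the presynaptic side, had 5.36, 5.02 and 4.92 in APP_NOSCA and 7.58, 6.77 and 6.98 in WT_NOSCA (-2.01 ± 0.18), with no overlap. GRIK5 (-0.89 ± 0.11), GRM7 (-0.78 ± 0.12), the NMDA receptor subunit GRIN1 (-0.68 ± 0.12) and the muscarinic receptor CHRM3 (-0.38 ± 0.06) fell. The potassium channels gave 3 rises and 5 falls among 20 genes, with KCNQ5 (0.76 ± 0.10) and KCNH2 (-0.50 ± 0.06) as examples. The calcium and sodium channels gave 5 rises and 3 falls among 19 genes, and the sodium channel SCN9A (1.10 ± 0.10) and the calcium channel CACNA1D (0.81 ± 0.13) rose. The 3 falls among them were lost without the run as a block.

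Neurite genes changed in both directions. Of 30 axon guidance genes, 9 rose and 7 fell. The repellent ligand SLIT2 had 8.63, 8.74 and 8.99 in APP_NOSCA and 10.36, 10.27 and 10.28 in WT_NOSCA (-1.52 ± 0.10), and its receptor ROBO2 had 8.88, 8.75 and 8.57 in APP_NOSCA and 7.44, 6.93 and 7.00 in WT_NOSCA (1.61 ± 0.16). Ligand and receptor thus moved in opposite directions, each without overlap. The semaphorin SEMA3A (1.29 ± 0.11) and the semaphorin receptors NRP2 (1.53 ± 0.20) and NRP1 (1.20 ± 0.17) rose, and the netrin receptor UNC5B fell by 0.98. Of 27 cytoskeletal genes, 7 rose and 4 fell. The neurofilament NEFM fell by 1.24, while GAP43 (0.49 ± 0.09), MAP1A (0.47 ± 0.06) and MAPT, which encodes tau (0.41 ± 0.06), rose. Without the run as a block 1 of the 7 rises and 2 of the 4 falls were called.

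The cells of both genotypes had been given retinoic acid and BDNF. Of 22 retinoic acid genes, 9 fell and 3 rose (median -0.06). The retinoid carrier CRABP2 had 13.24, 13.33 and 13.32 in APP_NOSCA and 13.80, 13.84 and 13.91 in WT_NOSCA (-0.55 ± 0.05). TGM2 (-0.81 ± 0.11), the retinol uptake receptor STRA6 (-0.72 ± 0.07) and NEDD9, a scaffold of focal adhesions (-3.08 ± 0.16), fell, whereas CYP26A1 (0.14) and CYP26B1 (0.10), which degrade retinoic acid, were not called. NTRK2, the BDNF receptor, fell by 0.66, and the difference of GFRA2, a coreceptor of GDNF family ligands, was -1.16 ± 0.20. All 10 probe sets of NTRK2 were called lower, with a range of -2.40 to -0.58. Of 19 Notch genes, 5 fell and 3 rose, with NOTCH3 (-0.62 ± 0.08), NRARP (-0.73 ± 0.13) and HES1 (-0.57 ± 0.11) among the falls and DLL3 (0.59 ± 0.10) among the rises. HES1 was called on 1 of its 5 probe sets, with a range of -0.57 to -0.08. When the run was not a block 1 Notch gene rose, and without the WT_NOSCA array of run 3, 1 retinoic acid gene rose.

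Matrix genes gave more falls than rises. Of 48 matrix and integrin genes, 14 fell and 5 rose (median -0.04), and 3 rose without the run as a block or without the WT_NOSCA array of run 2. The basement membrane collagen COL4A1 had 8.06, 8.21 and 8.45 in APP_NOSCA and 10.31, 10.34 and 9.93 in WT_NOSCA (-1.95 ± 0.16), and COL4A2, its neighbour on chromosome 13, fell by 1.47. VCAN (-0.75 ± 0.08) fell and the laminin receptor subunit ITGA6 (1.20 ± 0.13) rose. Of 29 mesenchymal and YAP genes, 6 fell and 1 rose, with SNAI2 (-1.14 ± 0.17) and CCN1 (-1.05 ± 0.07) among the falls. Without the APP_NOSCA array of run 1, 3 mesenchymal and YAP genes fell. Of 29 genes of ERK output, 9 fell and 4 rose, and 5 fell without the run as a block. The growth factor-induced MYC had 7.34, 7.07 and 7.31 in APP_NOSCA and 9.93, 9.16 and 8.98 in WT_NOSCA (-2.12 ± 0.19), EGR1 fell by 1.35 and SPRY2 by 0.93, while PHLDA1 (1.43 ± 0.22) and ETV1 (0.60 ± 0.08) rose. EGFR was not called (0.01 ± 0.11). The homeobox gene HOXB8 fell by 1.69, and 4 of 20 HOX genes fell in all, or 2 without the APP_NOSCA array of run 1.

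The cell cycle inhibitor CDKN2A had 6.06, 6.63 and 6.61 in APP_NOSCA and 9.44, 9.44 and 9.25 in WT_NOSCA (-2.94 ± 0.22, adjusted p = 5.1e-08). All 3 of its probe sets had a negative difference and 2 were called. Its neighbours on the same locus moved little, with CDKN2B lower by 0.32 and MTAP not called (-0.05 ± 0.10). Of 21 genes of CDKs, cyclins and their inhibitors, 7 fell and 1 rose, among them CDK1 (-0.40 ± 0.10), CDKN1B (-0.38 ± 0.09) and CDK2 (-0.31 ± 0.08). CDK1 was called on 1 of its 3 probe sets, with a range of -0.398 to -0.135. Of 30 mitosis genes, 7 fell and none rose (median -0.20). CENPA, the histone of centromeres (-0.44 ± 0.10), and the kinesin KIF20A (-0.36 ± 0.09) were among them. The mean level of the mitosis genes was 10.58, 10.63 and 10.64 in APP_NOSCA and 10.80, 10.81 and 10.86 in WT_NOSCA, so that the groups did not overlap although most members were not called. Of 29 DNA replication genes, 4 fell, MCM4 by 0.22. MCM4 was called on 1 of its 5 probe sets, with a range of -0.22 to -0.02. Called in either direction were 23.3% of the mitosis genes and 13.8% of the replication genes, against 14.8% of all genes. Without the run as a block 2 CDK and cyclin genes, 2 mitosis genes and no replication gene fell, and leaving out 1 array gave counts of 1 to 6 mitosis genes called lower, fewest without the APP_NOSCA array of run 1. The lowest counts of CDK and cyclin genes (2) and of replication genes (0) came without the same array.

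Genes of APP processing moved in both directions. Of 27 measured, 4 rose and 2 fell, or 22.2% called, against 14.8% of all genes. APH1B, a gamma-secretase subunit (0.50 ± 0.07), and ECE1, an enzyme that degrades amyloid-beta (0.65 ± 0.05), rose, and MME, another such enzyme, fell by 0.48. BACE1 (-0.12), the beta-secretase, was not called. Of 27 Alzheimer risk genes, 3 rose and 2 fell, or 18.5% called, near the 14.8% of all genes. The lipoprotein CLU had 9.34, 9.38 and 9.88 in APP_NOSCA and 8.12, 8.10 and 8.81 in WT_NOSCA (1.19 ± 0.10), with no overlap. Of the 2 probe sets of CLU, 1 was called, with a range of 0.04 to 1.19. ZCWPW1 (0.72 ± 0.09) and BIN1 (0.42 ± 0.09) rose, and ADAMTS1 (-0.92 ± 0.16) and ADAMTS4 (-0.77 ± 0.12) fell. ZCWPW1 was called on 1 of its 3 probe sets, with a range of 0.04 to 0.72. With no block for the run 2 APP processing genes rose and 1 fell, and 1 Alzheimer risk gene fell.

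Protein folding genes of the endoplasmic reticulum fell in part. Of 20 measured, 7 fell and none rose (median -0.17). HERPUD1 had 9.49, 9.23 and 8.99 in APP_NOSCA and 10.19, 9.92 and 9.68 in WT_NOSCA (-0.69 ± 0.09), and PDIA4 (-0.35 ± 0.07), CRELD2 (-0.30 ± 0.07), MANF (-0.27 ± 0.06) and the main chaperone HSPA5 (-0.22 ± 0.07) fell less. Each run showed a lower value in the APP array for HERPUD1, although the HERPUD1 level differed between runs in both groups. A fit with no block for the run gave 2 falls in the 20. The ATF4 stress genes gave 4 rises, ATF3 among them (0.98 ± 0.10), and 1 fall, SHMT2 (-0.70 ± 0.11), in 23 genes. Of 31 glycolysis and hypoxia genes, 3 fell, namely PFKP (-0.87 ± 0.12), PFKFB3 (-0.57 ± 0.10) and LDHA (-0.44 ± 0.11), and ADM rose (0.76 ± 0.19). ADM was called on 1 of its 3 probe sets, with a range of 0.17 to 0.76. Called in either direction were 21.7% of the ATF4 stress genes and 12.9% of the glycolysis and hypoxia genes, against 14.8% of all genes. Of 23 lysosome and autophagy genes, 5 rose and 2 fell. Of these, 2 rose and none fell when the run was not a block, and then 2 ATF4 stress genes rose. Leaving out 1 array gave 2 to 4 rises of lysosome genes, fewest without the WT_NOSCA array of run 3, and 0 to 2 falls, fewest without the APP_NOSCA array of run 1. None of 26 respiratory chain genes and none of 25 ribosomal protein genes were called. The neuronal zinc transporter SLC30A3 fell by 1.56, and the metallothionein MT1F (0.91 ± 0.21), a member of a family of near-identical genes, rose.

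**Figure D3:**
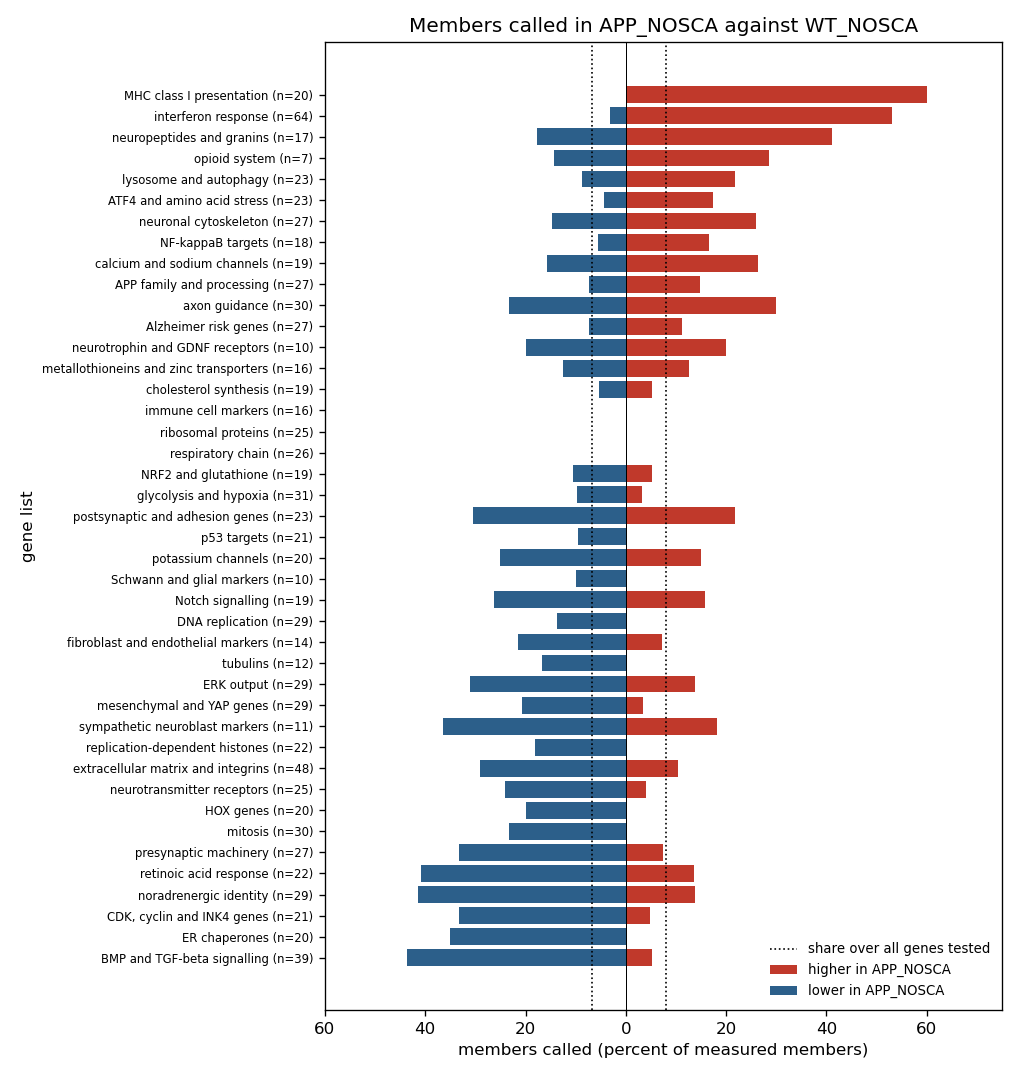
Share of the measured members of each gene list (y axis, n in brackets) called between APP_NOSCA and WT_NOSCA, in percent (x axis), with higher in APP_NOSCA to the right in red and lower to the left in blue. Dotted lines mark the shares over all 18132 genes (7.99% higher, 6.79% lower). MHC class I and interferon genes reach furthest to the right, and BMP and TGF-beta genes furthest to the left.

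The same genotype comparison was made in arrays of other treatments, which shared no array with it but the same runs and the same estimate of spread. In vehicle (0.1% DMSO) 3151 genes were called (17.4%), 1857 higher (10.2%) and 1294 lower (7.14%). In AG494, an inhibitor of the EGF receptor kinase, 3068 were called (16.9%), 1532 higher (8.45%) and 1536 lower (8.47%). Of the genes called under NOSCA, 1652 were called in vehicle too (61.6% of the NOSCA calls and 52.4% of the vehicle calls), 1643 of them in the same direction. With AG494 1598 were shared (59.6% and 52.1%), 1589 in the same direction. Over 18132 genes the differences under NOSCA had a correlation of 0.84 with those in vehicle and of 0.83 with those under AG494, as a description across genes, which are not independent.

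In all 3 treatments 1236 genes were called, 631 higher and 600 lower each time. Their median absolute difference was 0.56 under NOSCA, 0.56 under AG494 and 0.60 in vehicle. Another 666 genes were called under NOSCA and in neither other treatment. Their median absolute difference was 0.31, 429 of them had the same sign in both other treatments, and none passed a test of the difference from vehicle or from AG494. They are thus not shown to be particular to NOSCA.

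The difference between the genotype effects was tested gene by gene. Between NOSCA and vehicle 3 genes passed (0.0165%), all higher and none lower (0.0%), while 1957 had an unadjusted p under 0.05 (10.8%). The histone gene H2AC25 had a genotype difference of 0.38 under NOSCA and of -1.14 in vehicle, which differ by 1.52 ± 0.20 (adjusted p = 0.0114). Its group means were 10.21 in APP_NOSCA and 9.83 in WT_NOSCA, and 9.84 in APP_DMSO and 10.98 in WT_DMSO, so that the vehicle-treated WT arrays stood highest. H2AC20 (0.42 under NOSCA and -0.39 in vehicle) and SH3D21 (0.06 and -0.53) were the other two. For SH3D21 2 of 3 probe sets had the opposite sign under NOSCA, and with its probe sets averaged the effects differed by 0.17 (adjusted p = 0.58). Histone genes of this family are near-identical copies. None of the 3 passed without the run as a block, in a fit of only the arrays concerned or without the WT_NOSCA array of run 1. SH3D21 passed in 1 of 6 fits that left out 1 array, the one without the APP_NOSCA array of run 1.

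Between NOSCA and AG494 30 genes passed (0.165%), 8 higher (0.0441%) and 22 lower (0.121%), with 1821 at an unadjusted p under 0.05 (10.0%). The peptide hormone NPPC had 8.72, 8.93 and 8.74 in APP_NOSCA and 7.25, 7.42 and 7.25 in WT_NOSCA (1.49 ± 0.08), against a genotype difference of 0.12 under AG494, and the effects differed by 1.37 ± 0.11 (adjusted p = 6.95e-06). The transcription factor EBF3 had differences of 1.76 under NOSCA and 0.35 under AG494. The difference for both genes passed in every alternative setting that was run. Without the run as a block 8 of the 30 genes passed, and the decoy receptor BAMBI was not among them (adjusted p = 0.487, against 0.00401 with the block). In vehicle the same genes had genotype differences of 1.20 (NPPC) and 2.03 (EBF3).

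Interferon and presentation genes had smaller genotype differences under NOSCA than under AG494 where the test passed. HLA-B had 1.16 under NOSCA and 2.57 under AG494, NLRC5 had 1.68 and 3.08, IFI27 had 1.84 and 3.62, HERC6 had 1.70 and 2.54, and IFI35 had 0.68 and 1.67, in that order of treatments. The other 61 of 64 interferon genes and 18 of 20 presentation genes did not pass. The 2 probe sets of IFI35 were both called under NOSCA, with differences of 0.68 and 2.72, and the values above are of the first. The list medians were 0.44 under NOSCA, 0.75 under AG494 and 0.35 in vehicle for interferon genes, with 34, 41 and 32 members called higher in the same order. IFITM1 itself had differences of 3.91 under NOSCA, 4.73 under AG494 and 4.26 in vehicle. IFITM1 was called higher in each of the 3 treatments.

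Other lists had different counts by treatment. Of 30 mitosis genes 7 fell under NOSCA, 29 under AG494 and 2 in vehicle, with medians of -0.20, -0.53 and -0.13, and of 29 replication genes 4 fell under NOSCA, 23 under AG494 and none in vehicle. The counts of folding genes were 7 lower under NOSCA, none lower and 5 higher under AG494, and 8 lower in vehicle. The difference between NOSCA and AG494 passed for HERPUD1 (-0.87 ± 0.13), CRELD2 (-0.56 ± 0.10) and MANF (-0.47 ± 0.08), and no mitosis or replication gene passed it. Glycolysis and hypoxia genes gave 3 falls under NOSCA, 5 under AG494 and 15 in vehicle. No gene of these lists passed the difference from vehicle, so that the counts are set side by side and are not shown to differ.

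**Figure D4:**
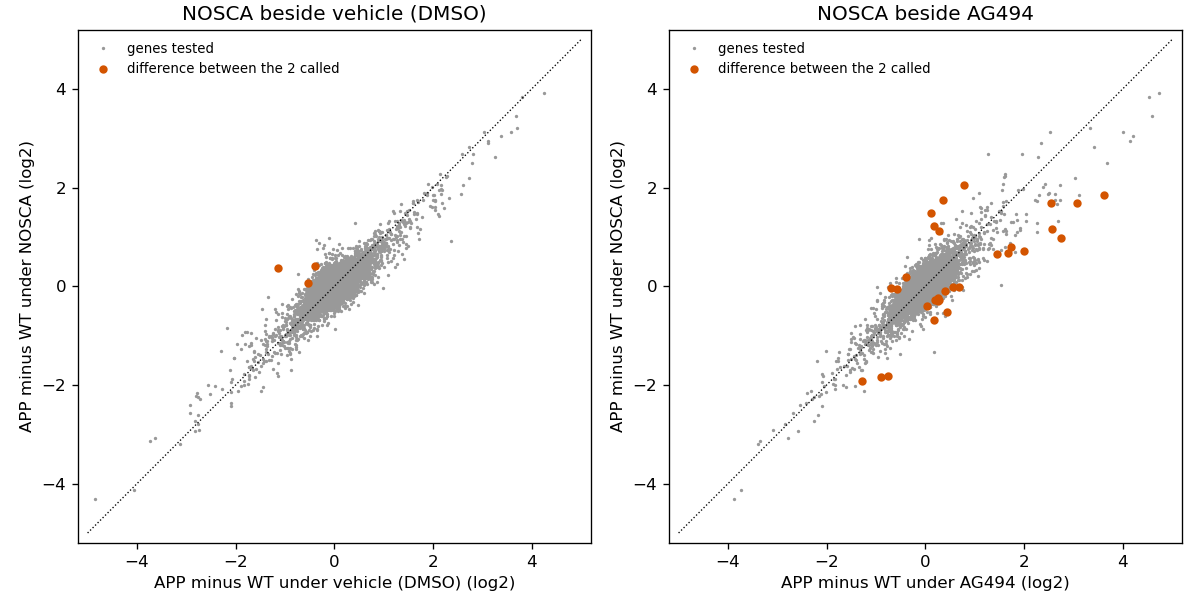
Genotype difference of each gene (log2, APP minus WT) under NOSCA on the y axes, against vehicle on the x axis of the left panel and against AG494 on the x axis of the right panel. Grey points are 18132 genes, the dotted line marks equal differences, and orange points are the 3 genes (left) and 30 genes (right) for which the difference between the 2 treatments passed the test.

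**Figure D5:**
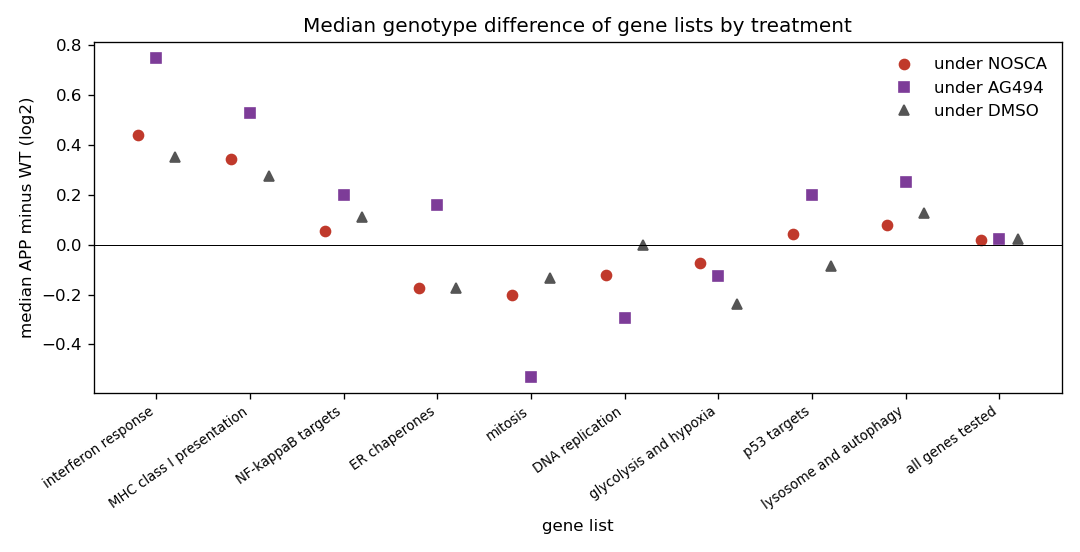
Median genotype difference (log2, APP minus WT, y axis) of 9 gene lists and of all genes tested (x axis) under NOSCA (red circles), AG494 (purple squares) and DMSO (grey triangles). Interferon genes lie at 0.44, 0.75 and 0.35 in that order, and folding genes at -0.17, 0.16 and -0.17.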

How the data were processed

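Groups were read from the labels' genotype and treatment, and runs from the sample numbers in the titles. The deposited values are log2 intensities, normalised by the authors with RMA through affy, as given per the submitters' notes on processing; versions are not given in the sources used here. They were used as deposited and ran from 4.14 to 14.37. Intensities hold no read depth, and precision is set by how many arrays there are. The 49372 probe sets comprised 79 controls, not tested, 44988 with 1 gene symbol in the platform annotation, 1832 with several and 2473 not listed there. By Entrez ID, 44961 of those with 1 symbol were matched to RefSeq. For each of 18132 genes the probe set of highest mean was used, and 11734 genes had several to choose from. No dim gene was left out.

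Tests used lmFit and eBayes of limma 3.58.1 (R 4.3.3), two-sided, in 1 fit of 21 arrays with a coefficient per group and the run as a block (12 residual and 4.64 prior degrees of freedom), adjusted by Benjamini and Hochberg over all genes at a threshold of 0.05. The fit was tested on simulated data. The labels do not say which arrays share an experiment, so the pairing by run is inferred from the sample numbers. The deviations of arrays of the same run from their group means had correlations of 0.226 to 0.685 over 63 pairs. Between APP_NOSCA and WT_NOSCA they were 0.359, 0.362 and 0.507. Arrays of different runs and groups gave -0.529 to 0.089. Deviations from a group mean cancel out within the group, so that negative values there are partly set by the centring.

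Genes named were the 15 largest rises and falls with groups that do not overlap and runs of 1 sign, up to 5 called members with the lowest p of each of 42 lists with at least 3 called members, APP and its homologues, and the 5 lowest p of each difference between treatments. Other genes are given as members of a list. Of 1073 list entries, 984 were measured. The members and lists were chosen with earlier results of these data known, so that counts over lists describe and do not test. The alternatives changed the block, the arrays fitted, the probe set rule, the dimmest 33.3% of genes, the scaling, the prior, array weights, the fold and single arrays.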

Additional observations from a re-analysis of the deposited data

Results flagged for a closer look

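The genotype effect differed between NOSCA and vehicle, by a limma test of the difference itself, for 3 genes: H2AC25 by 1.52 ± 0.20 (SE, adjusted p = 0.0114), H2AC20 by 0.81 ± 0.12 (adjusted p = 0.025) and SH3D21 by 0.59 ± 0.09 (adjusted p = 0.025), all on the log2 scale and 3 arrays a group. H2AC25 and H2AC20 had a positive difference under NOSCA and a negative one in vehicle. For SH3D21 the value was 0.17 (adjusted p = 0.58) with the gene's probe sets averaged.

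Of the 30 genes that passed between NOSCA and AG494, 22 lower and 8 higher, those that are also named genes or list members are given. The genotype effect was smaller under NOSCA, or further below 0, for the interferon and presentation genes IFI27 (-1.78 ± 0.33, adjusted p = 0.0398), HLA-B (-1.41 ± 0.24, adjusted p = 0.0203), NLRC5 (-1.40 ± 0.24, adjusted p = 0.0225), IFI35 (-0.99 ± 0.19, adjusted p = 0.0398) and HERC6 (-0.84 ± 0.12, adjusted p = 0.0057). The same held for the BMP decoy receptor BAMBI (-1.07 ± 0.14, adjusted p = 0.00401) and the quinone reductase NQO1 (-0.94 ± 0.13, adjusted p = 0.00561). BAMBI lost the call without the run as a block (adjusted p = 0.487). The value for IFI35 rests on 1 of its 2 probe sets, which had 0.68 under NOSCA, against 2.72 for the other. For the inflammatory genes the values were -0.81 ± 0.13 (IL32, adjusted p = 0.0159) and -0.59 ± 0.11 (TNFAIP3, adjusted p = 0.0499). The folding genes HERPUD1 (-0.87 ± 0.13), CRELD2 (-0.56 ± 0.10) and MANF (-0.47 ± 0.08) and the T-box factor TBX3 (-0.64 ± 0.08, adjusted p = 0.00172) also had negative values, and positive values are given for EBF3 (1.40 ± 0.13, adjusted p = 7.64e-05) and NPPC (1.37 ± 0.11, adjusted p = 6.95e-06). TBX3 fell in the APP arrays (-1.93 under NOSCA and -1.29 under AG494), so that the 2 effects differ in size and not in sign.

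Probe sets without a single gene symbol were outside the comparisons. Of 4305, 463 were called between APP_NOSCA and WT_NOSCA (10.8%), 299 higher and 164 lower, against 13.2% of the probe sets with 1 symbol in the same fit. With 3 arrays a group, no search for outlying arrays within a group was made.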

How the results depend on the processing

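Against 2680 genes called between APP_NOSCA and WT_NOSCA, the count was 1306 with no replicate block, 1745 in a fit of only the arrays of the contrast, 5978 over every probe set and 695 at 1.5-fold, and leaving out 1 array gave 1757 to 2263, the lowest without WT_NOSCA replicate 2. For the genotype in vehicle (3151 genes) these settings gave 1677, 1270, 7433 and 834. For the genotype under AG494 (3068 genes) the count was 1635 with no replicate block, 6847 over every probe set and 711 at 1.5-fold. The 3 genes that differed between NOSCA and vehicle became 0 with no replicate block and in the fit of only these arrays, 9 over every probe set, 9 with centring on array medians, 8 with a trended and robust prior, 61 with array weights and 0 to 3 leaving out 1 array. The 30 genes that differed between NOSCA and AG494 became 8 with no replicate block, 70 over every probe set, 71 with the probe sets of a gene averaged, 93 with a trended and robust prior, 120 with array weights and 9 to 22 leaving out 1 array. The causes were not tested. Of the genes called under NOSCA 54.1% were higher, against 49.3% after quantile normalization, 49.2% after centring, 49.4% with no replicate block, 49.4% without WT_NOSCA replicate 2 and 47.3% at 1.5-fold, so that under these 5 settings falls outnumbered rises. In vehicle 58.9% were higher, against 50.4% after quantile normalization and 42.1% after centring (1311 higher and 1800 lower). No named gene that was called changed sign in a setting run for it. The named genes gave 2570 values with the same call, 230 that lost it and 11 that gained it. The replicate block changed 46 of the named calls. Counts of list members moved by over 1.5 times in 263 cases against 913 that did not, mostly for lists with few calls, while interferon genes kept 27 to 36 rises and BMP and TGF-beta genes 14 to 18 falls in all settings run per gene. Intensities near the dim end limit what can be seen for genes such as MX1 and IFNB1.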

Other observations

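Neighbouring genes were looked at after the values had been seen. Of the protocadherin beta genes, cell-surface proteins that give neurons their adhesive identity, 16 were measured, 5 fell and 5 rose, so that this cluster had no common direction. Over all genes 7.99% were called higher and 6.79% lower. PCDHB3 (-2.37), PCDHB16 (-1.99) and PCDHB14 (-1.37) fell most on the log2 scale, while PCDHB2 (0.91), PCDHB13 (0.60) and PCDHB9 (0.52) rose. These genes are related in sequence, so that the probe sets may not separate them fully. Elsewhere there were 10 stretches of at least 4 adjacent genes called in the same direction. They included CACNA2D3, LRTM1, WNT5A and ERC2 on chromosome 3 (median 0.80), MYO16, IRS2, COL4A1 and COL4A2 on chromosome 13 (median -1.10), and ITPR1, BHLHE40, EDEM1 and GRM7 on chromosome 3 (median -0.61). The median difference of each of chromosomes 1 to 22 lay between 0.00 and 0.04, and the sex chromosomes were not summarised.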
